A study of Caenorhabditis elegans with 2 samples.

Results

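The 10 genes described here encode enzymes of the methionine cycle and of the route from phosphoethanolamine to phosphocholine in Caenorhabditis elegans. They were listed by symbol as metr-1, mthf-1, sams-1, sams-3, sams-4, sams-5, pmt-1, pmt-2, ahcy-1 and cbs-1, and each symbol matched the description of 1 row among the 46135 genes of the deposited table. Transcript levels came from whole larvae at the L3 stage of 2 genotypes, the lsm-1(tm3585) mutant and the N2 wild type, with 1 rRNA-depleted library each. The mutant strain had been backcrossed to N2, and both genotypes had grown for 26 hours at 25 °C from synchronised L1 larvae. lsm-1 encodes a subunit of a cytoplasmic ring of proteins that promotes decapping and decay of messenger RNA. With no second library of either genotype, no difference below has a replicate check, and intervals cover counting error only.

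In the methionine cycle, methionine is joined to ATP to make S-adenosylmethionine, the methyl donor of most methylation reactions. Methyl transfer leaves S-adenosylhomocysteine, which is split to homocysteine, and homocysteine is either methylated back to methionine or passed on to cysteine. Worms make phosphocholine, the head group of phosphatidylcholine, by methylating phosphoethanolamine step by step, so this lipid route is a large user of S-adenosylmethionine. In worms a shortage of S-adenosylmethionine or phosphatidylcholine is known to activate the lipogenic transcription factor SBP-1.

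Levels are given in FPKM, that is fragments per kilobase of transcript per M fragments, where M is 1000000. From the size of the smallest steps between them, the FPKM values used here were scaled to about 8.62 M fragments in mutant larvae and 6.99 M in N2 larvae. The number of fragments that each library held may differ from this. Each difference is the mutant value minus the N2 value on the log2(FPKM + 1) scale, which understates the change of low genes. The authors deposited 2 FPKM pairs for the same libraries, 4 columns in all: the pair beside their test is used here, and the other is called the further pair. A gene counted as measured at 1 FPKM or more in either library, which held for 14838 genes and for 9 of the 10 members. The median difference of measured genes was 0.24, a factor of 1.18 in FPKM + 1, and a centred difference is relative to it. The mutated gene, lsm-1 itself, stood at 5.94 FPKM in mutant larvae and 10.2 FPKM in N2 larvae (ratio 0.581, 95% counting interval 0.338 to 0.968), and it did not pass the authors' test (q = 0.457 in the authors' deposited table). Whether reads from a partial deletion still reach this value was not examined, so it is a weak check of the genotype.

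The members did not move together. Of the 10, 8 had a usable test in the authors' deposited table, and 3 passed it: sams-1 and pmt-1 were higher in mutant larvae and sams-5 was lower. Over all genes 3.76% of usable tests were passed, 2.35% with the mutant higher and 1.41% with the mutant lower. Of the 661 genes past it, 342 (51.7%) were listed at 0 in 1 library, as pmt-1 was. That test compares the reads of these 2 libraries and not the genotypes. By size, 2 of the 9 measured members had a difference of at least 1, a 2-fold step, with the mutant higher (background 13.6% of measured genes), and 1 had it with the mutant lower (background 12.2%). Counts this small over 9 genes lie near those background shares. The median difference of the 9 measured members was -0.07, and 7 of them lay below the median of all measured genes.

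**Figure D1:**
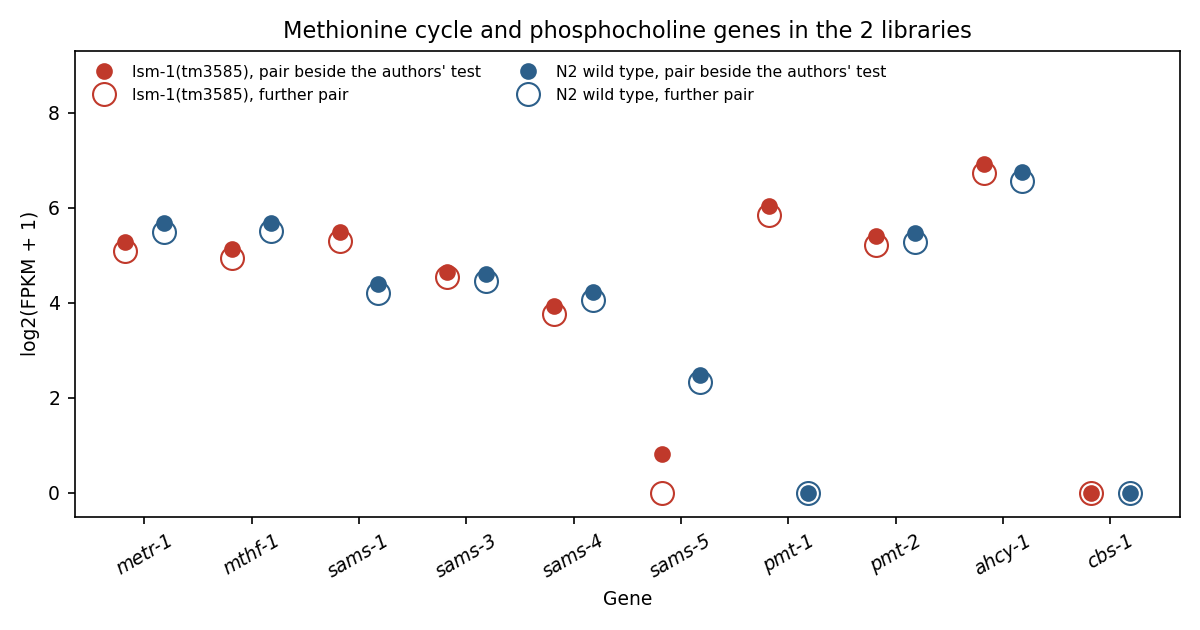
Level of each of the 10 genes as log2(FPKM + 1) in the lsm-1(tm3585) library (red, left) and the N2 wild-type library (blue, right). Filled points show the FPKM pair beside the authors' test and open rings the further pair deposited for the same libraries. sams-1 stands higher in mutant larvae and sams-5 lower, pmt-1 is at 0 in N2 larvae in both pairs, and cbs-1 is at 0 throughout.

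Remethylation of homocysteine is carried out by metr-1, the methionine synthase, which uses vitamin B12 as its cofactor. metr-1 (R03D7.1, chromosome II) stood at 37.7 FPKM in mutant larvae and 49.8 FPKM in N2 larvae, from about 1283 fragments in mutant larvae and 1375 in N2 larvae. The ratio was 0.756, with a 95% counting interval of 0.700 to 0.816, and the centred difference was -0.63. mthf-1 (C06A8.1, chromosome II) encodes the methylenetetrahydrofolate reductase that supplies the methyl group to methionine synthase. It stood at 34.1 FPKM in mutant larvae and 50.2 FPKM in N2 larvae, a ratio of 0.679 with an interval of 0.614 to 0.750 and a centred difference of -0.78. Both genes were therefore lower in the mutant library beyond counting error, yet neither passed the authors' test (q = 0.682 for metr-1 and 0.457 for mthf-1, in the authors' deposited table). Of the 11804 measured genes with no 0 in any FPKM column, 15.1% had a lower difference than metr-1 and 11.2% a lower one than mthf-1. The level of metr-1 was 1.11 times that of mthf-1 in mutant larvae and 0.993 times in N2 larvae.

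The sams genes encode S-adenosylmethionine synthetases, and their differences ran from -1.66 for sams-5 to 1.09 for sams-1. sams-1 (C49F5.1, chromosome X), the synthetase whose loss is best known for raising fat stores in worms, stood at 43.7 FPKM in mutant larvae and 19.96 FPKM in N2 larvae. These rest on about 696 fragments in mutant larvae and 258 in N2 larvae, and the ratio was 2.19 with a counting interval of 1.89 to 2.53. The gene rose past the authors' test, with q = 0.0244 in the authors' deposited table. Its difference of 1.09 was above that of 94.8% of measured genes with no 0 in any column. After centring the difference was 0.85, short of the 2-fold step. It was the only member past that step among the 7 measured members above 0 in all 4 columns, where the background was 6.57% with the mutant higher and 3.86% with the mutant lower.

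sams-3 and sams-4 (C06E7.1 and C06E7.3) lie next to each other on chromosome IV on opposite strands, with no protein-coding gene between them in the WBcel235 annotation. sams-3 stood at 24.2 FPKM in mutant larvae and 23.2 FPKM in N2 larvae, a ratio of 1.04 (0.875 to 1.24) that did not pass the authors' test (q = 0.962 in the authors' deposited table). sams-4 stood at 14.2 FPKM in mutant larvae and 17.7 FPKM in N2 larvae, a ratio of 0.801 (0.653 to 0.985), and its test is marked as failed. Family members can share reads, which was not examined, so their sum is also given: 38.4 FPKM in mutant larvae and 40.9 FPKM in N2 larvae, a ratio of 0.938. sams-3 overlaps C06E7.4 on the opposite strand (9.27 FPKM in mutant larvae and 6.63 FPKM in N2 larvae), and the reads of such a pair cannot be told apart unless the library keeps strand.

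sams-5 (T13A10.11, chromosome IV) was the lowest of the listed sams genes, at 0.759 FPKM in mutant larvae and 4.56 FPKM in N2 larvae. It fell past the authors' test (q = 0.00175 in the authors' deposited table), with a ratio of 0.166 and a counting interval of 0.0743 to 0.362. Only about 9 fragments in mutant larvae and 42 in N2 larvae lay behind it. In the further pair it was listed at 0 in mutant larvae and at 4.06 FPKM in N2 larvae. The remaining gene of the family, sams-2, is no member and is annotated as a pseudogene, and it stood at 3.83 FPKM in mutant larvae and 4.06 FPKM in N2 larvae.

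Added up, the 5 sams genes reached 86.6 FPKM in mutant larvae and 69.5 FPKM in N2 larvae, a ratio of 1.25. The factor of all measured genes, which is of FPKM + 1, was 1.18. Within that sum the make-up differed: sams-1 held 50.4% in mutant larvae and 28.7% in N2 larvae. The share of sams-3 was 27.9% in mutant larvae and 33.35% in N2 larvae, and that of sams-4 was 16.4% in mutant larvae and 25.5% in N2 larvae. Without sams-1 the sum was 43.0 FPKM in mutant larvae and 49.5 FPKM in N2 larvae, a ratio of 0.868. sams-1 stood at 1.14 times the sum of sams-3 and sams-4 in mutant larvae and at 0.488 times that sum in N2 larvae. These shares compare genes within a library, so they do not depend on how the libraries were scaled. They can depend on how reads shared within the family were assigned, which was not examined. In the further pair the sams-1 share was 50.1% in mutant larvae and 28.4% in N2 larvae.

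**Figure D2:**
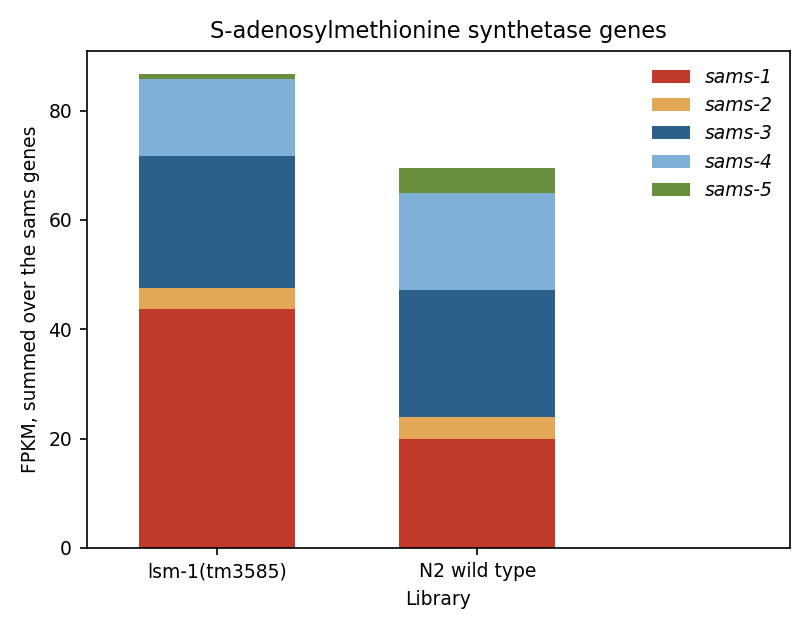
Summed FPKM of the 5 sams genes in the lsm-1(tm3585) library and the N2 wild-type library, 1 bar per library, coloured by gene. The sams-1 segment reaches 43.7 FPKM in mutant larvae and 19.96 FPKM in N2 larvae, while sams-3 and sams-4 together take 38.4 FPKM in mutant larvae and 40.9 FPKM in N2 larvae.

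Phosphocholine synthesis is shared between pmt-1, which adds the first methyl group to phosphoethanolamine, and pmt-2, which adds the later ones. pmt-2 (F54D11.1, chromosome V) stood at 41.2 FPKM in mutant larvae and 43.2 FPKM in N2 larvae, a ratio of 0.953 (0.842 to 1.08) that did not pass the authors' test (q = 0.974 in the authors' deposited table). Its interval includes 1 and lies below the factor of 1.18 of all measured genes, which is of FPKM + 1. pmt-1 (ZK622.3, chromosome II) stood at 64.3 FPKM in mutant larvae, about 854 fragments, and was listed at 0 in N2 larvae. In the further pair it stood at 56.4 FPKM in mutant larvae and was again listed at 0 in N2 larvae. The authors' deposited table gives it as past the test (q = 2.48e-16), with a placeholder in place of a log2 fold change.

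A 0 in this table is not a safe reading of absence, so no fold is given for pmt-1. Of 598 protein-coding genes with at least 50 FPKM in the mutant library, 11, pmt-1 among them, were listed at 0 in N2 larvae. All 11 were at 0 there in the further pair as well. With at least 20 FPKM in either library, 48 of 1857 protein-coding genes were at 0 in N2 larvae alone and 34 in mutant larvae alone. Zeros of this kind thus occurred in both directions and at high levels, but such counts do not tell absence from a failed estimate. The 2 pairs can also differ for the same libraries. gcsh-2 stood at 50.7 FPKM in mutant larvae and 40.3 FPKM in N2 larvae, and the further pair lists it at 0 in both. The 2 columns that give pmt-1 a 0 come from the same library, so their match adds no independent evidence. The 2 genes of this route therefore cannot be compared: pmt-2 has a level in each library and pmt-1 in mutant larvae alone. In the mutant library pmt-1 stood above 94.8% of measured genes and pmt-2 above 92.4%.

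ahcy-1 (K02F2.2, chromosome I) encodes the hydrolase that clears S-adenosylhomocysteine, a product that inhibits methyltransferases. It was the most abundant member, at 119 FPKM in mutant larvae and 107 FPKM in N2 larvae, above 96.7% of measured genes in mutant larvae and 96.8% in N2 larvae. The ratio was 1.12 (1.03 to 1.21), the centred difference was -0.08, and the gene did not pass the authors' test (q = 0.880 in the authors' deposited table). Its interval includes the factor of 1.18. That factor is of FPKM + 1 and the interval is of plain FPKM, so a departure from the median gene was not tested. ahcy-1 stood at 1.38 times the sum of the sams genes in mutant larvae and at 1.54 times in N2 larvae.

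cbs-1 (ZC373.1, chromosome X) encodes the cystathionine beta-synthase that passes homocysteine on towards cysteine. It was listed at 0 in both libraries of both FPKM pairs, and its test is marked as failed. Of 1128 genes so marked, 459 were at 0 in both libraries of the pair beside the test. No level of cbs-1 can be given from these values.

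Taking the members by level, the order in mutant larvae was ahcy-1, pmt-1, sams-1, pmt-2, metr-1, mthf-1, sams-3, sams-4 and sams-5. In N2 larvae, leaving out pmt-1, it was ahcy-1, mthf-1, metr-1, pmt-2, sams-3, sams-1, sams-4 and sams-5. sams-1 thus stood next to pmt-2 in mutant larvae and between sams-3 and sams-4 in N2 larvae. No replicate spread exists to say which neighbours in these orders differ; in N2 larvae mthf-1 and metr-1 stood at 50.2 and 49.8 FPKM.

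**Figure D3:**
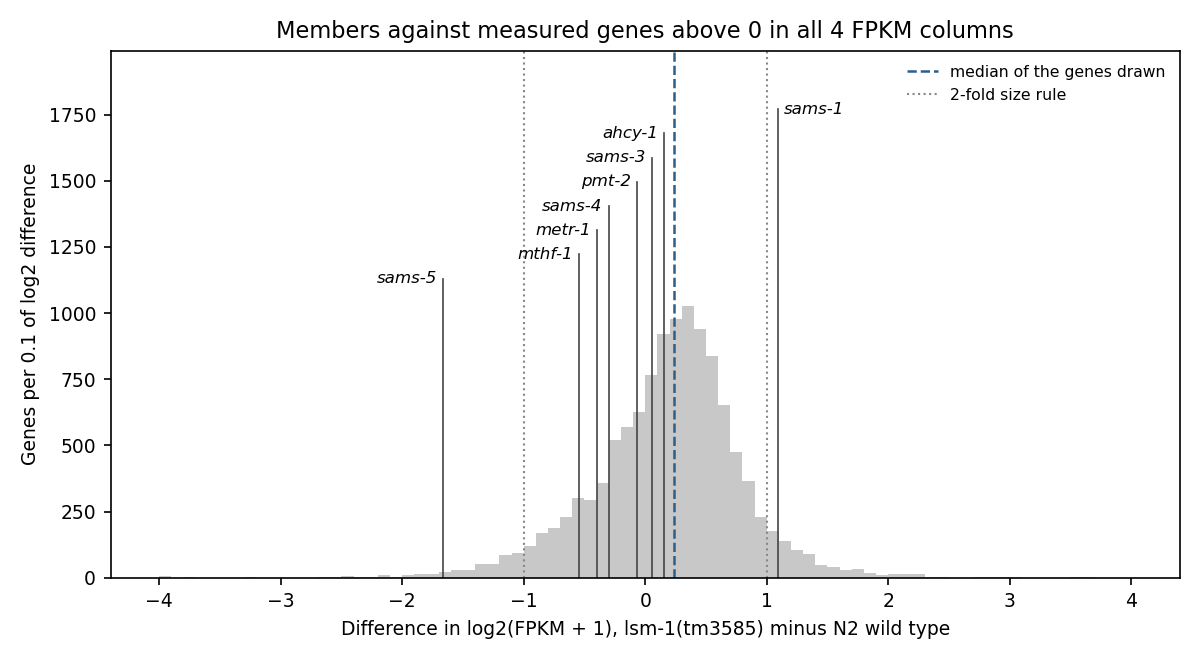
Difference in log2(FPKM + 1), lsm-1(tm3585) minus N2 wild type, for the 11804 measured genes with no 0 in any FPKM column (grey histogram, values beyond the axis placed in the end bins), with the members as labelled lines whose height has no meaning. sams-1 lies beyond the 2-fold step and the other members above 0 in all 4 columns lie below the median of 0.24; sams-5 is drawn although 1 of its columns is 0, and pmt-1 and cbs-1 are not drawn.

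The folate and B12 genes around methionine synthase were examined as a list of 14, of which 13 were measured. Their median difference was 0.11 against 0.24 for all measured genes. Of 10 usable tests 1 was passed with the mutant higher and 1 with it lower (2.35% and 1.41% over all genes). folt-2, a folate transporter family gene, fell to 9.15 FPKM in mutant larvae, against 26.8 FPKM in N2 larvae. folt-1, the transporter that takes up folate, stood at 3.69 FPKM in mutant larvae and was listed at 0 in N2 larvae. mtrr-1, which encodes the reductase that keeps methionine synthase active, stood at 21.7 FPKM in mutant larvae and 35.4 FPKM in N2 larvae without passing the test (q = 0.236 in the authors' deposited table). At the high end gcsh-2, of the glycine cleavage system, stood at 50.7 FPKM in mutant larvae and 40.3 FPKM in N2 larvae, but the further pair lists it at 0 in both libraries. metr-1, mthf-1 and mtrr-1 thus had ratios below 1 side by side, none of them past the test.

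Genes that turn homocysteine into cysteine and handle sulfur went both ways. Of 13 listed, 12 were matched and measured, with a median difference of 0.51, and 1 of 11 usable tests was passed (3.76% over all genes). cth-1, a cystathionine gamma-lyase, fell to 4.44 FPKM in mutant larvae, against 15.1 FPKM in N2 larvae. The other gene of that enzyme, cth-2, was the more abundant and stood at 53.4 FPKM in mutant larvae and 36.6 FPKM in N2 larvae. cysl-3 (12.5 FPKM in mutant larvae and 3.10 FPKM in N2 larvae) and cysl-2 (52.8 FPKM in mutant larvae and 15.5 FPKM in N2 larvae), of the cysteine synthase family, had the highest differences of the list. Neither passed the test, at q = 0.273 and 0.107 in the authors' deposited table. cysl-4 stood at 0.435 FPKM in mutant larvae and 1.27 FPKM in N2 larvae. cbs-2, the other cystathionine beta-synthase gene, was low in both libraries, at 0.420 FPKM in mutant larvae and 1.06 FPKM in N2 larvae.

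The Kennedy pathway turns choline and phosphocholine into phosphatidylcholine, and it was listed with other phospholipid genes (16 genes, 14 measured). The median difference was 0.39, and 1 of 11 usable tests was passed (3.76% over all genes). The gene past it, the phosphatidylserine synthase gene pssy-1, stood at 11.9 FPKM in mutant larvae and was listed at 0 in N2 larvae. In the further pair it was at 0 in both libraries. pcyt-1, which encodes the enzyme that joins CTP to the phosphocholine made by the pmt enzymes, stood at 15.7 FPKM in mutant larvae and 6.52 FPKM in N2 larvae (q = 0.0620 in the authors' deposited table, not past the test). ckb-2, a choline kinase family gene, stood at 8.67 FPKM in mutant larvae and 3.18 FPKM in N2 larvae, also not past it (q = 0.0754 in the authors' deposited table). At the low end were pssy-2 (1.37 FPKM in mutant larvae and 4.14 FPKM in N2 larvae) and pcyt-2.1 (9.49 FPKM in mutant larvae and 14.2 FPKM in N2 larvae), neither of them past the test.

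Methyltransferases that use S-adenosylmethionine gave a list of 20, of which 15 were measured, with a median difference of 0.36. Of 16 usable tests 1 was passed (3.76% over all genes). It was that of prmt-5, a protein arginine methyltransferase gene, which stood at 8.21 FPKM in mutant larvae and was listed at 0 in N2 larvae. comt-3, of the catechol O-methyltransferase family, stood at 19.0 FPKM in mutant larvae and 8.84 FPKM in N2 larvae. At the low end were the amine N-methyltransferase family gene anmt-3 (1.88 FPKM in mutant larvae and 5.51 FPKM in N2 larvae) and the SET-domain gene set-32 (1.42 FPKM in mutant larvae and 2.32 FPKM in N2 larvae). set-2, which encodes a histone H3 lysine 4 methyltransferase, was listed at 0 in both libraries.

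The last list held 20 genes linked to lipid control by SBP-1 or to vitamin B12, 19 of them measured. It mixes regulators and pathway enzymes with genes known to respond to low phosphatidylcholine or to vitamin B12 status. The median difference of the list was -0.04, and it was 0.37 over its 14 genes above 0 in all 4 FPKM columns. For all measured genes it was 0.24. Of 17 usable tests by the authors, 1 was passed with the mutant higher and 5 with the mutant lower, beside 2.35% and 1.41% over all genes. Of these 6 genes, 2 (alh-8 and mce-1) were listed at 0 in 1 library. The list was chosen with earlier results of these data known, so its count beside those shares is no test of the list. The factor gene sbp-1 stood at 1.43 FPKM in mutant larvae and 1.498 FPKM in N2 larvae. Of its 3 desaturase targets, fat-5 fell to 1.70 FPKM in mutant larvae, against 10.8 FPKM in N2 larvae. fat-7 stood at 1.15 FPKM in mutant larvae and 2.73 FPKM in N2 larvae, and fat-6 at 82.5 FPKM in mutant larvae and 54.1 FPKM in N2 larvae, neither past the test. lpin-1, a phosphatidate phosphatase gene, stood at 18.5 FPKM in mutant larvae and 9.63 FPKM in N2 larvae, not past the test.

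In that list the propionate shunt, which worms use when vitamin B12 is scarce, was lower in 3 genes past the authors' test. acdh-1 fell to 15.01 FPKM in mutant larvae, against 186 FPKM in N2 larvae. hphd-1 fell to 11.4 FPKM in mutant larvae, against 40.7 FPKM in N2 larvae. hach-1 fell to 20.4 FPKM in mutant larvae, against 49.6 FPKM in N2 larvae. hphd-1 was listed at 0 in mutant larvae in the further pair. alh-8 of the same route stood at 24.6 FPKM in mutant larvae and was listed at 0 in N2 larvae, and the further pair lists it at 0 in both. mce-1, of the B12-dependent route, was listed at 0 in mutant larvae (21.2 FPKM in N2 larvae). Of the other genes of the B12-dependent route, mmcm-1 stood at 18.9 FPKM in mutant larvae and 11.4 FPKM in N2 larvae, pcca-1 at 7.07 FPKM in mutant larvae and 3.97 FPKM in N2 larvae, and pccb-1 at 27.4 FPKM in mutant larvae and 18.5 FPKM in N2 larvae, none of them past the test. mmaa-1 stood at 18.4 FPKM in mutant larvae and 21.4 FPKM in N2 larvae, and its test is marked as failed.

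**Figure D4:**
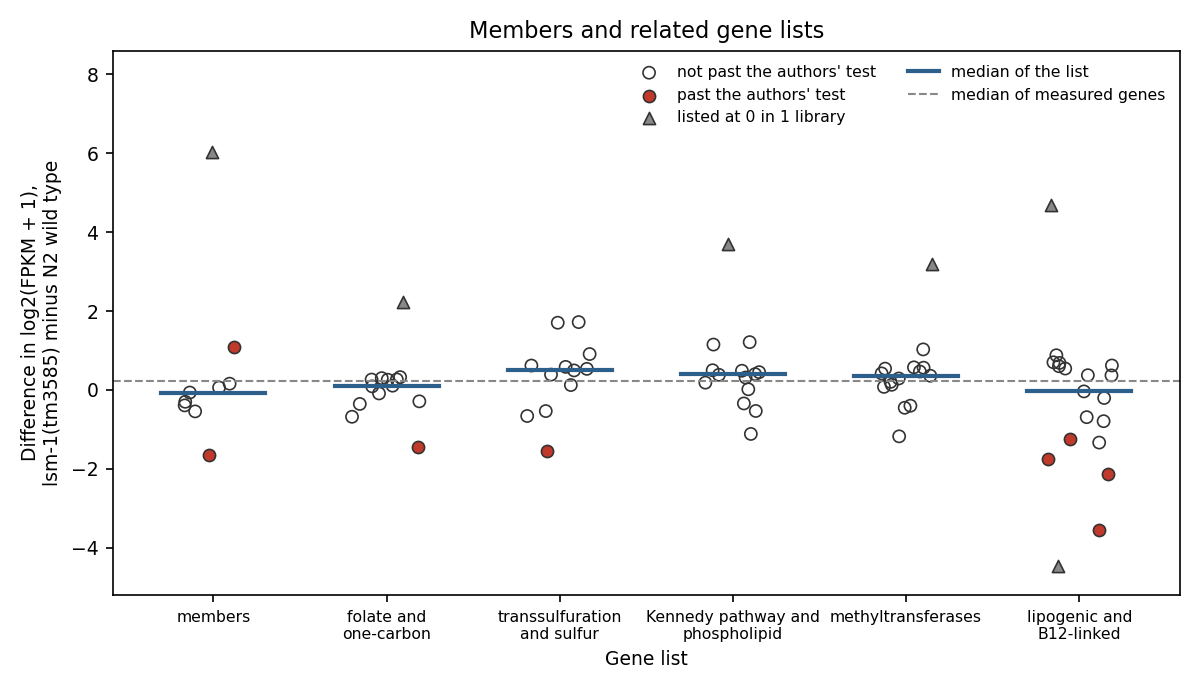
Difference in log2(FPKM + 1), lsm-1(tm3585) minus N2 wild type, for the measured members and 5 related lists, 1 point per gene. Filled circles passed the authors' test and open circles did not. Grey triangles are genes listed at 0 in 1 library, all of which passed it too. Blue bars are list medians, which run from -0.07 for the members to 0.51 for the sulfur list beside 0.24 for all measured genes (dashed).

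In whole larvae, a change in the number of cells of a type and a change of RNA per cell cannot be told apart. Of 11 matched intestine genes, 10 were measured, with a median difference of 0.32, and their FPKM summed to 406 in mutant larvae and 353 in N2 larvae. None passed the authors' test, and the esterase gene ges-1 was at 0 in both libraries. Of 12 germ line genes, 11 had a centred difference below 0, and the list summed to 47.2 FPKM in mutant larvae and 67.4 FPKM in N2 larvae. Of its 11 usable tests 1 was passed with the mutant lower, that of glh-2 (1.41% over all genes). Epidermal genes (9 of 10 measured) had a median of 0.77 and sums of 337 FPKM in mutant larvae and 245 FPKM in N2 larvae. In that list 3 of 9 usable tests were passed with the mutant higher (elt-1, elt-3 and grd-10) and 1 with it lower (nhr-23). Over all genes the shares were 2.35% and 1.41%. nhr-23 was listed at 0 in mutant larvae and at 5.70 FPKM in N2 larvae, and the further pair lists it at 0 in both. Body wall muscle genes (7 of 10 measured, the other 3 at 0 in both libraries) had a median of 0.84 and sums of 826 FPKM in mutant larvae and 588 FPKM in N2 larvae. None of the 7 usable tests in that list was passed. The part of these shifts in the values of the methionine cycle genes was not tested.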

How the data were processed

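RNA from 1 lsm-1(tm3585) library and 1 N2 library was analysed. Per the labels' protocols, total RNA was depleted of ribosomal RNA and made into TruSeq libraries; TopHat, Cufflinks and Cuffdiff were used, per the submitters' processing notes, and the genome build is not given in the sources used here. The authors deposited 2 pairs of FPKM values, a log2 fold change, and a p-value and q-value per gene. A gene past the authors' test carries the deposited call, which matched a q-value under 0.05 throughout. The first pair was used; the further pair was lower by a median factor of 1.14 in each library. No test was computed here, since each genotype has 1 library.

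Differences used a pseudocount of 1 and a minimum of 1 FPKM in either library. Fragments were estimated from the modal FPKM step of genes with 1 annotated transcript (Ensembl release 115) and the median transcript length, and exact Clopper-Pearson 95% intervals were derived from them. The step finder and size rule were tested on simulated data. Of 127 list entries, 117 matched by description, 8 by RefSeq locus tag and 2 (sqrd-2 and opt-2) not at all. Genes named are the members and, per list, those past the authors' test and up to 2 at each end; cth-2, cbs-2, pcyt-1, set-2, sbp-1, fat-6, fat-7, mmcm-1, pcca-1, pccb-1, mmaa-1, sams-2 and ges-1 were added after their values were seen. Members and lists were chosen with earlier results of these data known. Python 3.11.15, pandas 2.3.3 and scipy 1.17.1 were used. Alternatives changed the pseudocount, filter, scaling and FPKM pair.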

Additional observations from a re-analysis of the deposited data

How the results depend on the processing

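No paired analysis was possible because each genotype has 1 library. The count of members at least 2-fold higher, 2 in the values reported, was 1 after centring, 1 with the FPKM sums made equal, and 1 among members above 0 in all 4 FPKM columns; in the first 2 cases sams-1 dropped short of the step (0.85 and 0.97), and in the third pmt-1 was left out by construction. The count at least 2-fold lower, 1 (sams-5), was 0 with a minimum of 5 FPKM and 0 among members above 0 in all 4 columns, both of which leave sams-5 out. The same limit to genes above 0 left 1 member higher and 0 lower past the authors' test, against 2 and 1. The median difference of the members, -0.07, was -0.30 after centring and -0.19 with equal sums. With a pseudocount of 0.1, no filter or the further pair, these counts did not change. Centring lowered each difference by 0.24 and equal sums by at most 0.13, so either could turn only a smaller positive difference. The further pair comes from the same libraries. Of the 27 values under these alternatives 24 kept their sign, which was largely set in advance and is no measure of robustness. The 27 include pmt-1, whose 0 in N2 larvae in both pairs left its sign no room to turn with equal sums or in the further pair. The exceptions were sams-3, at -0.18 after centring and -0.06 with equal sums, and ahcy-1, at -0.08 after centring. Depth limits sams-5 most, with about 9 fragments in the mutant library.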
